A study of Homo sapiens with 7 samples.

Results

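The mitochondrial carrier family SLC25 was examined in RNA-seq of MDA-MB-231, a cell line derived from a breast carcinoma without oestrogen receptor, progesterone receptor or amplified ERBB2, and mesenchymal in character. Members were taken by a rule on the name, as rows of the gene table with a symbol of the form SLC25A followed by a number. This gave 49 of 57773 rows and 48 distinct symbols, since SLC25A10 is listed under 2 identifiers. The groups were 2 libraries labelled KD and 3 labelled parent, all of the same line. The series concerns APE1, a DNA repair endonuclease, and G-quadruplexes, structures that form in guanine-rich DNA. The labels do not spell out KD, name no clone and give no harvest time. A treatment note shared by the samples speaks of APE1-knockout cells that received doxycycline-inducible APE1, wild type or mutant, from a lentivirus, and does not say which libraries it covers. Whether the replicates were grown separately is not stated, and the p-values then reflect the spread between these libraries alone, which may be technical.

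SLC25 proteins are encoded in the nucleus and sit mostly in the inner mitochondrial membrane, where they move nucleotides, carboxylates, amino acids, cofactors and iron that the membrane would otherwise hold back. ATP made in the matrix leaves through the ADP/ATP carriers, phosphate enters through SLC25A3, and citrate leaves through SLC25A1 to feed fatty acid and sterol synthesis. Several substrates have more than 1 carrier gene, and in many tissues a single copy predominates.

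Library totals ran from 14677006 to 15502425 counts in KD and from 14601078 to 18049386 counts in parent. APEX1, the gene for APE1, had 640 and 753 counts in KD libraries and 1936, 1936 and 2413 counts in parent libraries, so the counts follow the labels. APEX1 was thus lower in KD by the quasi-likelihood test of edgeR, with a log2 fold change of -1.51 ± 0.0727 (SE) and an adjusted p of 5.87e-05. Of the markers of the line, VIM (vimentin) stood at 2149 ± 2.06 CPM in KD and 2261 ± 106 CPM in parent. CPM are counts scaled to a common library size, and a level after ± is the SD over the 2 KD or the 3 parent libraries. ESR1, the oestrogen receptor gene, and PTPRC, a leukocyte gene, were at 0 counts in all 5 libraries. Of 7 tested markers, CD44 and AXL, both usual in the line, were lower in KD, and CDH1 (E-cadherin, 7.70 ± 1.37 CPM in KD and 3.51 ± 0.430 CPM in parent) and ERBB2 were higher (edgeR adjusted p = 0.00951, 0.0296, 0.00587 and 0.0426 in that order). EPCAM, the other epithelial marker, was at 9.71 ± 1.68 CPM in KD and 12.3 ± 0.671 CPM in parent and did not pass (edgeR adjusted p = 0.121). Their part in the results was not tested.

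As a family the carriers took nearly the same share of the counts in both groups. Their summed counts made up 0.2554% and 0.2576% of the total in KD libraries, and 0.2585%, 0.2629% and 0.2586% in parent libraries. In CPM the sums were 2538.5 and 2559.2 in KD, and 2623.9, 2622.3 and 2607.9 in parent. Both KD sums lay below all 3 parent sums, a gap that was not tested. SLC25A37 alone, which did not pass the edgeR test, differed by a similar amount. It had 229 and 188 CPM in KD, against 345, 272 and 239 CPM in parent. Of all genes tested singly, 51.4% had groups without overlap. SLC25A3, SLC25A5 and SLC25A6 alone gave 41.9% and 43.9% of the family's counts in KD, and 39.4%, 40.9% and 41.3% in parent. These are shares of reads, not corrected for transcript length.

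Of the 49 rows, 41 had enough counts to be tested and 8 did not. Of the 41 tested, 8 had an edgeR adjusted p under 0.05, with 3 of them higher and 5 lower in KD. Over all 16198 genes tested, 21.5% passed, 9.15% higher and 12.4% lower, so the carriers' 19.5% is near the background and is not a result particular to the family. The median log2 fold change was -0.00727 over the 41 members and 0.000845 over all tested genes. The median size of the change, whatever its sign, was 0.186 on the log2 scale over the members and 0.193 over all tested genes. No member changed at least 2-fold, whereas 5.55% of all tested genes passed the test with a change of that size. The CPM of the groups did not overlap for 20 of the 41 members, against 51.4% of all tested genes. Between libraries of a group, the coefficient of variation over the members had a median of 4.34% in KD and 7.86% in parent. Over all tested genes the median was 6.29% in KD and 7.52% in parent. These rest on 2 KD and 3 parent libraries, so their size is not comparable between the groups.

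**Figure D1:**
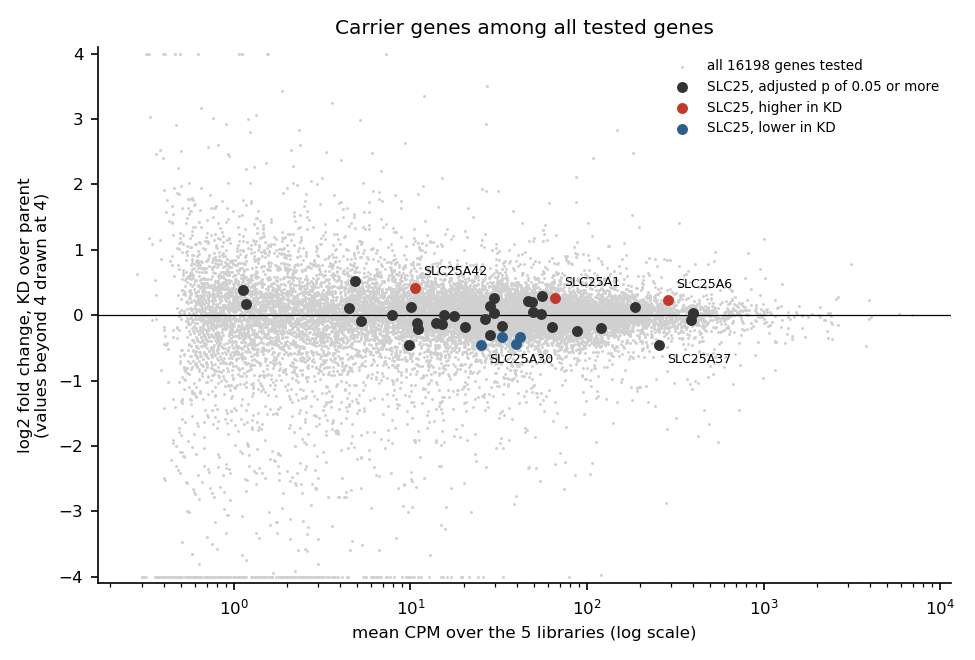
The plot sets the log2 fold change of KD over parent (vertical axis) against the mean CPM over the 5 libraries (horizontal log axis) for all 16198 tested genes, in grey with values beyond 4 drawn at the edge, and 40 of the 41 tested SLC25 members, as larger points. These span a log2 fold change of -0.46 for SLC25A27 to 0.52 for SLC25A45, inside the spread of other genes with similar counts.

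**Figure D2:**
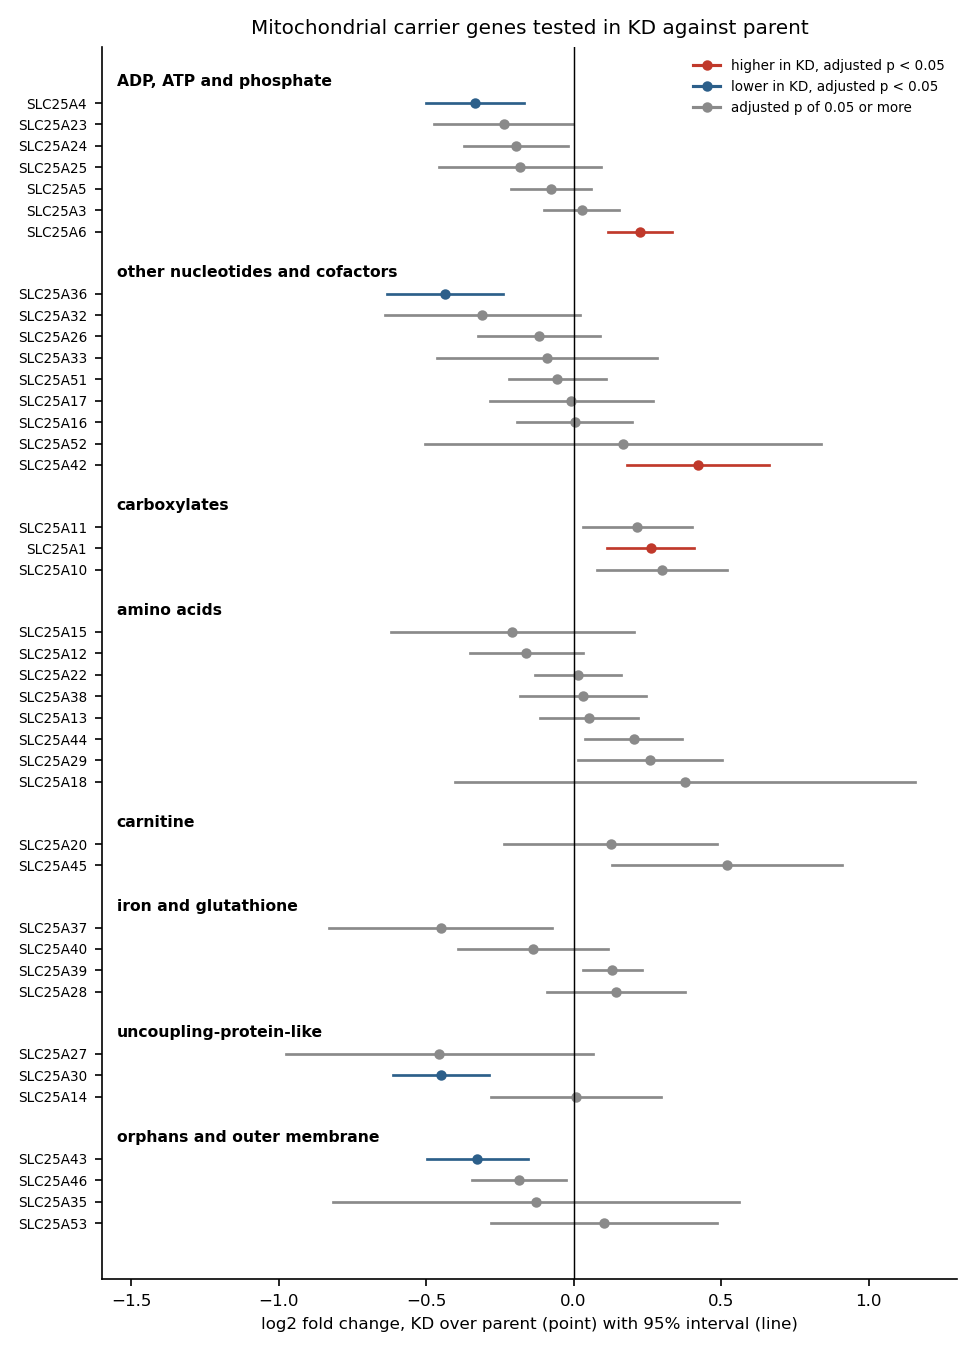
Each point is the log2 fold change of a tested SLC25 gene in KD over parent, for 40 of the 41, each line its 95% interval, grouped by what the carrier moves. The 3 genes higher in KD and the 4 shown as lower in KD are spread over 5 of the 8 groups. The carboxylate carriers all lie to the right of 0, the side that holds 50.1% of all tested genes.

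The carriers of ADP, ATP and phosphate held the most counts, and SLC25A4 and SLC25A6, both ADP/ATP carriers, moved in opposite directions. SLC25A4 (ANT1), the isoform typical of heart and skeletal muscle, had 27.4 and 29.6 CPM in KD, against 34.3, 37.2 and 36.2 CPM in parent. All 3 parent libraries lay above both KD libraries, and the log2 fold change was -0.33 ± 0.0701 (SE, edgeR adjusted p = 0.0166). SLC25A6 (ANT3), a broadly expressed isoform, had 312 and 319 CPM in KD, against 277, 263 and 271 CPM in parent. It was higher in both KD libraries, with a log2 fold change of 0.23 ± 0.0459 (SE, edgeR adjusted p = 0.0149). SLC25A5 (ANT2), the isoform linked to proliferating cells, had 361.4 and 391.7 CPM in KD and 380.5, 407.6 and 404.1 CPM in parent. Its groups overlapped, and its log2 fold change had a 95% interval of -0.21 to 0.06. SLC25A31 (ANT4), known from testis, was at 0 counts throughout.

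The call on SLC25A4 was lost without KD replicate 1 (edgeR adjusted p = 0.119), KD replicate 2 (0.0558) or parent replicate 2 (0.0655) and in DESeq2 (0.0523), with alternatives running from 0.0126 to 0.119. SLC25A6 lost its call without KD replicate 1 (0.0811), KD replicate 2 (0.114) or parent replicate 2 (0.0619), with 0.00172 to 0.114 across alternatives. In the authors' deposited table SLC25A6 had an adjusted p-value of 0.00177, and SLC25A4 one of 0.0537. SLC25A5 has many processed pseudogenes. The 9 SLC25A5 pseudogene rows of the table held 12 to 14 counts per library in KD and 11 to 13 in parent, but reads may have been assigned to either copy, so these counts are uncertain. How the counting treated strand is not given, and SLC25A5 also has an antisense gene.

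SLC25A3, the phosphate carrier that supplies ATP synthesis, had 389 and 413 CPM in KD and 377, 401 and 402 CPM in parent. The groups overlapped, and the 95% interval of the log2 fold change was -0.10 to 0.16. The calcium-regulated carriers of ATP-Mg and phosphate, SLC25A24, SLC25A23 and SLC25A25, had log2 fold changes of -0.20, -0.24 and -0.18, and none passed the edgeR test (adjusted p = 0.110, 0.139 and 0.316). SLC25A24 passed without parent replicate 1 (0.0235, with 0.0235 to 0.305 across alternatives). Their relative SLC25A41 had 0 and 2 counts in KD and 0 in each parent library.

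**Figure D3:**
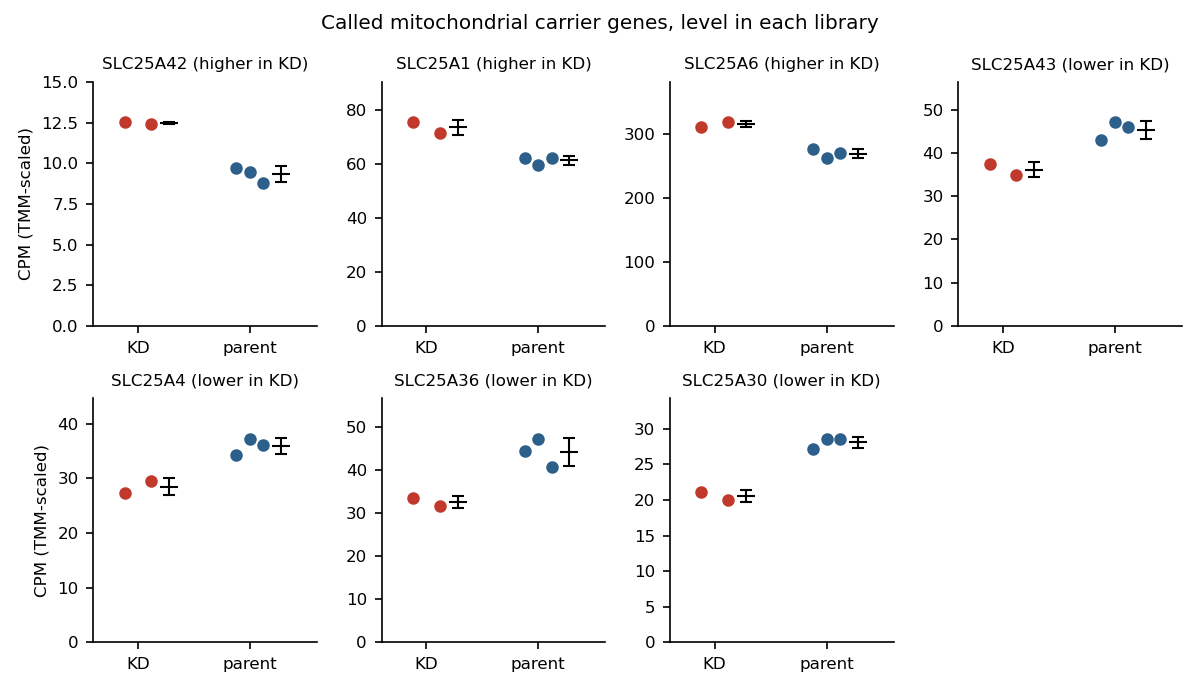
CPM of 7 of the 8 carriers past an adjusted p of 0.05, with a point per library, KD on the left and parent on the right of each panel, and the mean ± SD beside the points (n = 2 and n = 3). In each panel the KD points do not overlap the parent points, and SLC25A6 is the closest in fold between groups (315.8 ± 4.73 CPM in KD and 270.1 ± 7.18 CPM in parent).

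The carriers of other nucleotides and of cofactors gave 1 higher and 2 lower genes among 10 tested. SLC25A36, a carrier of pyrimidine nucleotides, had 33.7 and 31.7 CPM in KD, against 44.6, 47.3 and 40.7 CPM in parent. Both KD libraries were below all parent libraries, and the log2 fold change was -0.43 ± 0.0828 (SE, edgeR adjusted p = 0.0117). The other pyrimidine nucleotide carrier, SLC25A33, had 5.07 ± 0.176 CPM in KD and 5.40 ± 0.655 CPM in parent, with overlapping groups. The call on SLC25A36 was lost without KD replicate 2 (edgeR adjusted p = 0.0822, with 0.00455 to 0.0822 across alternatives). SLC25A42, which imports coenzyme A, had 12.5 and 12.4 CPM in KD, against 9.71, 9.50 and 8.77 CPM in parent. The KD values lay close together and above every parent value, and the log2 fold change was 0.42 ± 0.101 (SE, edgeR adjusted p = 0.0272).

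SLC25A42 lost its call without KD replicate 1 (edgeR adjusted p = 0.117), KD replicate 2 (0.0970), parent replicate 2 (0.0793) or parent replicate 3 (0.0785), when low counts were kept (0.0514) and in DESeq2 (0.221), with 0.0233 to 0.221 across alternatives. The remaining 7 genes of the group did not pass. SLC25A32, the carrier of folate and FAD, stood at 24.6 ± 4.30 CPM in KD and 30.5 ± 3.77 CPM in parent, with overlapping values. SLC25A51 and SLC25A52, close copies linked to NAD import that could share reads, had log2 fold changes of -0.05 and 0.17, both with intervals across 0. SLC25A26, the S-adenosylmethionine carrier, SLC25A17, the peroxisomal member, and SLC25A16, a candidate carrier linked to coenzyme A, had log2 fold changes of -0.12, -0.01 and 0.00.

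The carboxylate carriers had positive fold changes in all 3 tested genes, of which SLC25A1 passed. SLC25A1, the citrate carrier, had 75.5 and 71.7 CPM in KD, against 62.2, 59.6 and 62.3 CPM in parent. Both KD libraries exceeded the parent libraries, and the log2 fold change was 0.26 ± 0.0619 (SE, edgeR adjusted p = 0.0259). SLC25A10, the dicarboxylate carrier, had 59.05 and 66.7 CPM in KD, against 46.9, 51.0 and 55.2 CPM in parent (log2 fold change 0.30, edgeR adjusted p = 0.0628). SLC25A11, which exchanges oxoglutarate for malate in the malate-aspartate shuttle, had 52.5 and 48.1 CPM in KD, against 43.4, 40.6 and 45.65 CPM in parent (0.22, adjusted p = 0.0960). KD and parent did not overlap in any of these 3 genes, nor did they in 51.4% of all tested genes. Of all tested genes 50.1% had a positive fold change. SLC25A21, for oxodicarboxylates, had 5 counts in parent replicate 3 and 0 in the other libraries. The call on SLC25A1 was lost without KD replicate 1 (edgeR adjusted p = 0.142), KD replicate 2 (0.0573), parent replicate 2 (0.0983) or parent replicate 3 (0.0536), with 0.0187 to 0.142 across alternatives. SLC25A10 passed without parent replicate 3 (0.0469, with 0.0136 to 0.286 across alternatives).

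None of the 8 tested amino acid carriers passed the edgeR test. Over all 16198 tested genes 5713 had an unadjusted p under 0.05, and 2 of the 8 carriers did. These were SLC25A44, for branched-chain amino acids, at 52.8 ± 0.841 CPM in KD and 45.8 ± 2.34 CPM in parent, and SLC25A29, for basic amino acids, at 32.8 ± 1.43 CPM in KD and 27.5 ± 3.27 CPM in parent. In edgeR the adjusted p-values were 0.0820 and 0.123. SLC25A29 passed without parent replicate 1 (0.0254, with 0.0254 to 0.394 across alternatives). The aspartate-glutamate carriers of the malate-aspartate shuttle, SLC25A12 (aralar) and SLC25A13 (citrin), had log2 fold changes of -0.16 and 0.05 (adjusted p = 0.211 and 0.651). The glutamate carrier SLC25A22 had 55.1 ± 1.31 CPM in KD and 54.5 ± 1.02 CPM in parent, with a 95% interval of the log2 fold change of -0.13 to 0.16. SLC25A38, the glycine carrier needed for haem synthesis, stood at 30.3 ± 0.127 CPM in KD and 29.6 ± 2.91 CPM in parent. SLC25A15, the ornithine carrier of the urea cycle, and SLC25A18, a glutamate carrier, had log2 fold changes of -0.21 and 0.38 with wide intervals across 0. SLC25A2 had 1 and 2 counts in KD and 0 in parent, too few to test.

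Among the iron and glutathione carriers none of 4 passed, and SLC25A37 had the largest fold change of the 4. SLC25A37 (mitoferrin 1), the iron importer best known from red cell precursors, had 229.5 and 187.9 CPM in KD, against 345, 272 and 239 CPM in parent. Both KD values were below the lowest parent value, but parent replicate 1 stood far above the other parent libraries. The log2 fold change was -0.45 ± 0.159 (SE, edgeR adjusted p = 0.0920). It passed without parent replicate 3 (0.0373, with 0.000508 to 0.357 across alternatives). SLC25A28 (mitoferrin 2), the form of most other tissues, had 29.8 ± 0.414 CPM in KD and 27.0 ± 3.01 CPM in parent, with overlapping values. SLC25A39, a glutathione importer, had 197.5 and 199.5 CPM in KD, against 183, 182.7 and 177.9 CPM in parent, a narrow gap of 1.10-fold (edgeR adjusted p = 0.0701). It passed with library totals in place of TMM scaling (0.0493, with 0.0493 to 0.308 across alternatives). Its relative SLC25A40 stood at 14.2 ± 1.90 CPM in KD and 15.6 ± 0.113 CPM in parent.

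Of the carriers akin to uncoupling proteins, SLC25A30 (UCP6) was lower in KD and had the smallest adjusted p of the family. It had 21.2 and 20.0 CPM in KD, against 27.2, 28.6 and 28.6 CPM in parent. The libraries of each group lay close together and well apart from the other group. The log2 fold change was -0.45 ± 0.0688, or 1.37-fold lower (SE, edgeR adjusted p = 0.00496). Without KD replicate 2 the adjusted p was 0.0503, with 0.00490 to 0.0503 across alternatives. An antisense gene of SLC25A30 was at 0 counts in all libraries. SLC25A27 (UCP4), best known from brain, had a log2 fold change of similar size, -0.46, but its parent libraries ran from 8.10 to 13.6 CPM and overlapped those of KD (8.46 and 7.56 CPM). Its edgeR adjusted p was 0.191, and it passed without parent replicate 3 (0.0340, with 0.0146 to 0.461 across alternatives). SLC25A14 (UCP5) had 7.92 ± 0.577 CPM in KD and 7.87 ± 0.473 CPM in parent.

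SLC25A43, a carrier with no established substrate, was lower in KD. It had 37.4 and 34.9 CPM in KD, against 42.9, 47.1 and 45.9 CPM in parent, without overlap. The log2 fold change was -0.33 ± 0.0719 (SE, edgeR adjusted p = 0.0199). The call was lost without KD replicate 1 (0.0614), KD replicate 2 (0.126), parent replicate 2 (0.0706) or parent replicate 3 (0.0501), with 0.0153 to 0.126 across alternatives. SLC25A46, an outer-membrane member that shapes mitochondria, stood at 58.7 ± 0.137 CPM in KD and 66.7 ± 3.21 CPM in parent, and missed the threshold (edgeR adjusted p = 0.0975). SLC25A35, with 12.3 and 8.33 CPM in KD and 7.47, 14.55 and 11.8 CPM in parent, varied more between libraries of a group than between groups. SLC25A53, also without an established substrate, had a log2 fold change of 0.10. SLC25A45, related to the carnitine carrier, had 5.82 and 6.02 CPM in KD, against 4.73, 3.62 and 4.02 CPM in parent (log2 fold change 0.52, edgeR adjusted p = 0.0655), and passed without parent replicate 1 (0.0411, with 0.0411 to 0.371 across alternatives). The carnitine-acylcarnitine carrier SLC25A20 itself had 148 and 176 counts in KD and 129, 143 and 201 counts in parent, with a log2 fold change of 0.13 and an interval across 0. SLC25A34 had 4 to 13 counts in a library, and SLC25A47 and SLC25A48 had none. A count of 0 allows up to 3 counts, or 0.203 CPM in KD replicate 1 and 0.205 CPM in parent replicate 2, the highest such limits in each group. In bulk RNA, less transcript per cell and fewer cells holding it cannot be told apart.

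The number of carriers that passed depended on single libraries. With all libraries 18 of the 41 tested members had an unadjusted edgeR p under 0.05, beside 5713 of all 16198 tested genes. Without KD replicate 1, 2 passed (SLC25A30 and SLC25A36), and without parent replicate 2 the same 2 passed. Without KD replicate 2 none passed in edgeR, with 10 members at an unadjusted p under 0.05 against 18 with all libraries. The count over all genes was 1823 without KD replicate 1, 2029 without parent replicate 2 and 2076 without KD replicate 2, against 3485 with all libraries. Without parent replicate 1, 11 carriers passed, and without parent replicate 3, 7 passed, of which 4 were among the 8. DESeq2, which called 14% of all genes with an adjusted p, called 5 carriers, all among the 8: SLC25A1, SLC25A30, SLC25A36, SLC25A43 and SLC25A6. The authors' deposited table rests on the same kind of Wald test of these libraries, so it is not separate evidence. It has the same 5 carriers with an adjusted p-value under 0.05, all among the 8. Of all its genes with an adjusted p-value, 13.6% passed. The direction of each of the 8 was the same in all 10 alternatives. The groups did not overlap in any of the 8, so leaving out libraries could hardly have changed it.

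**Figure D4:**
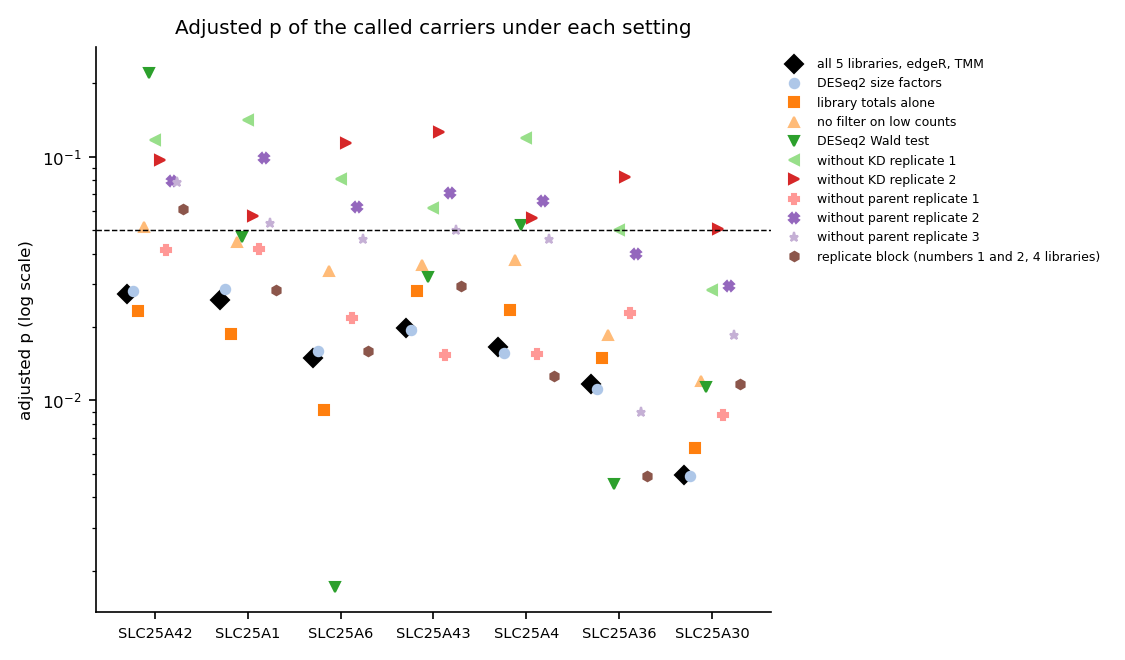
Adjusted p (vertical log axis) of 7 of the 8 called carriers with all 5 libraries (black diamonds) and under each alternative (other symbols). The dashed line is the threshold of 0.05, and SLC25A30 and SLC25A36 have a single point above it each, without KD replicate 2.

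Related carriers were also compared within each library as the log2 ratio of their CPM. The scaling of the library cancels in such a ratio, while its level still reflects the lengths of both genes. The pairs were chosen with the values known. The ratio of SLC25A4 to SLC25A6 was -3.51 and -3.43 in KD, against -3.01, -2.82 and -2.90 in parent. It was lower in both KD libraries by a mean of 0.56 on the log2 scale, which restates the opposite changes of these called genes. The ratio of SLC25A6 to SLC25A5 was -0.21 and -0.30 in KD, against -0.46, -0.63 and -0.58 in parent, and so higher in both KD libraries. For the mitoferrins, SLC25A37 over SLC25A28, it was 2.93 and 2.67 in KD, against 3.86, 3.31 and 3.01 in parent. The groups did not overlap in 7 of the 12 pairs. The 51.4% of all tested genes without overlap is for genes taken singly, so it is not a background for ratios. Pairs among SLC25A4, SLC25A5 and SLC25A6 share genes and are not separate results. Among the ATP-Mg carriers the ratios overlapped between groups. That of SLC25A24 to SLC25A25 averaged 2.55 ± 0.0373 in KD and 2.56 ± 0.0663 in parent. A two-sided exact permutation test of 2 against 3 libraries cannot give a p below 0.1, and the smallest value adjusted over the 12 pairs was 0.2, so no pair could pass.

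**Figure D5:**
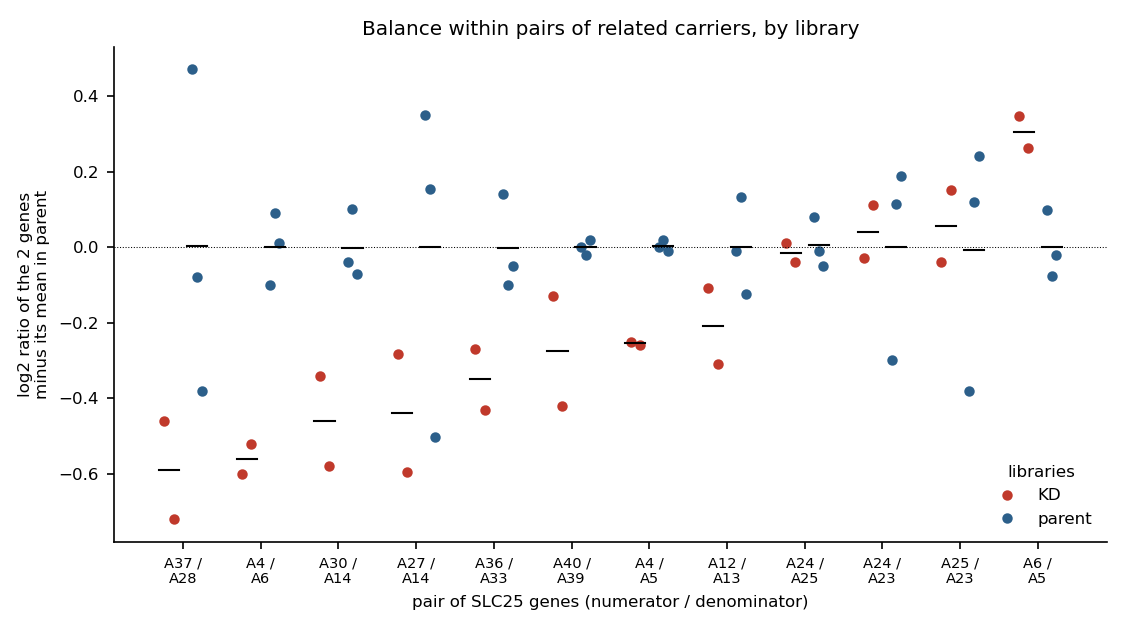
Log2 ratio of CPM for each of the 12 pairs of related carriers, with a point per library and a bar at the group mean, KD left of parent, after subtraction of the parent mean. The ratio of SLC25A4 to SLC25A6 is lower in KD by 0.56 and that of SLC25A6 to SLC25A5 is higher by 0.30. Both are among the 7 pairs without overlap, while ratios among SLC25A23, SLC25A24 and SLC25A25 overlap.

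Promoters were searched for a G-quadruplex motif because the series is about such structures. The motif was 4 runs of GGG with 1 to 7 N between them, on either strand, in the 250 bases before the gene start. RefSeq windows (GRCh38.p14) were at hand for 40 of the 48 symbols. Those without a window include SLC25A2, SLC25A16, SLC25A30, SLC25A32, SLC25A35, SLC25A37 and SLC25A41. The motif was found in 15 of the 40 members (37.5%), in 7142 of 27195 genes with a window (26.3%) and in 3951 of the 10001 tested genes matched by symbol (39.5%). It was found in 2 of the 6 called members with a window, SLC25A1 and SLC25A43, and in 11 of 29 members that were tested and not called. A match is a description of the letters and not a site. The windows of both, which moved in opposite directions, are shown on the coding strand with the motif in capitals, followed by those of SLC25A4 and SLC25A6, the ADP/ATP carriers that also moved in opposite directions and held no match. They lie at chr22:19178737-19178986 (minus strand), chrX:119399086-119399335 (plus strand), chr4:185143016-185143265 (plus strand) and chrX:1392114-1392363 (minus strand).
SLC25A1: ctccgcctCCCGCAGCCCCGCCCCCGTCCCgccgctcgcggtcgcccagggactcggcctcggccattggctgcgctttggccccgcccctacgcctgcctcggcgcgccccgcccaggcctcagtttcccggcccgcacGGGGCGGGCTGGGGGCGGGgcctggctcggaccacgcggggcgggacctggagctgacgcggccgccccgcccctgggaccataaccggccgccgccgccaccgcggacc
SLC25A43: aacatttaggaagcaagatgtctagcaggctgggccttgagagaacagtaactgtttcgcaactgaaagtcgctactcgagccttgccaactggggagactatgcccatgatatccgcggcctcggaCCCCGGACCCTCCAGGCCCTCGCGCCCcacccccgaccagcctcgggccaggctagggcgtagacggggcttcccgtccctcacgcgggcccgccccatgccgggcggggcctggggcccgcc
SLC25A4: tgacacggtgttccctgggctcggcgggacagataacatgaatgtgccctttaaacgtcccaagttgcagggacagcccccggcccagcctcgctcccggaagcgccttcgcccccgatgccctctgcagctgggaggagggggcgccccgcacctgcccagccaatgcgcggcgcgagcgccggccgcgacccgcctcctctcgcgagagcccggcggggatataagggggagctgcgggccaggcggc
SLC25A6: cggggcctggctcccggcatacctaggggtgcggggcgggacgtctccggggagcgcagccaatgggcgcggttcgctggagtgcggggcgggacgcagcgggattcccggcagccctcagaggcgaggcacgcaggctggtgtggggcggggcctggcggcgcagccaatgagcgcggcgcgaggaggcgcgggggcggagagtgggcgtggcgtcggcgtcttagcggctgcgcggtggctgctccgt
The G and C content of these windows was 81.6%, 66.8%, 71.6% and 76.8% in the same order. SLC25A1 held a match on each strand, and SLC25A43 a single match, on the strand opposite to the gene.

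Genes that work with the carriers were listed by role. Over all tested genes 21.5% were called in edgeR, 9.15% higher and 12.4% lower. Of 4 tested relatives under other symbols, 1 passed: UCP2, an uncoupling protein, had 46.9 and 49.6 CPM in KD, against 31.9, 33.1 and 32.9 CPM in parent (1.48-fold higher, edgeR adjusted p = 0.00127). MTCH1 and MTCH2, outer-membrane relatives, had log2 fold changes of -0.03 and -0.02. None of 13 tested genes of the machinery that inserts carriers into the membrane passed in edgeR or in DESeq2. In edgeR 2 of the 13 had an unadjusted p under 0.05, beside 5713 of all 16198 tested genes. With library totals 1 passed as higher, and with the replicate block 1 did, where 21.9% and 24.6% of all genes were called. Without KD replicate 2, which leaves a single KD library, the calls also differed. Log2 fold changes of the 13 genes ran from -0.32 to 0.28. Of 20 other mitochondrial membrane transporters, 2 rose and 0 fell, ABCB8 and SFXN5. With the replicate block, where 24.6% of all genes were called, 3 rose and 3 fell. ABCB8, an ABC transporter of the inner membrane, stood at 45.4 ± 0.0979 CPM in KD and 34.3 ± 0.994 CPM in parent, without overlap (edgeR adjusted p = 0.00441). SFXN5, a sideroflexin, was 1.32-fold higher (adjusted p = 0.0445) and lost its call when any of the 5 libraries was left out (from 0.0526 without KD replicate 1 to 0.248 without KD replicate 2), when low counts were kept (0.105) and in DESeq2 (0.136), with 0.0122 to 0.248 across alternatives.

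Of 15 citrate cycle and NADH shuttle enzymes, 1 rose and 3 fell. Over all 16198 tested genes 9.15% were called higher and 12.4% lower, for this list and those that follow. ME2, the mitochondrial malic enzyme, had 21.7 and 23.2 CPM in KD, against 39.9, 44.5 and 41.9 CPM in parent (1.87-fold lower, edgeR adjusted p = 0.000423). IDH2, the mitochondrial NADP-dependent isocitrate dehydrogenase, was 1.53-fold higher (adjusted p = 0.0106), a call lost without KD replicate 1 (0.0673, with 0.000523 to 0.0673 across alternatives). The others were ME1, the cytosolic malic enzyme (adjusted p = 0.0218), and GPD2, of the glycerol phosphate shuttle (0.0123). ME1 lost its call without KD replicate 1 (0.126, with 0.0131 to 0.126 across alternatives), and GPD2 without KD replicate 1 (0.0937), KD replicate 2 (0.0522) or parent replicate 2 (0.0502), with 0.000274 to 0.0937 across alternatives. Of 17 haem and iron-sulphur genes, 1 rose and 1 fell. FECH, the enzyme that puts iron into haem, had 18.4 and 20.3 CPM in KD, against 28.6, 33.1 and 31.5 CPM in parent (edgeR adjusted p = 0.00259). LYRM4, needed for iron-sulphur cluster assembly, was 1.28-fold higher (adjusted p = 0.00884), and lost its call without KD replicate 1 (0.0560) or KD replicate 2 (0.0780) and in DESeq2 (0.0738), with 0.00791 to 0.0780 across alternatives. Of 10 arginine, proline and glutamate enzymes, 1 rose and 2 fell. ASS1, argininosuccinate synthase, had 167 and 133 CPM in KD, against 51.7, 43.9 and 39.8 CPM in parent (3.32-fold higher, adjusted p = 0.000293). CPS1, of the urea cycle, was 1.40-fold lower (adjusted p = 0.0226), and lost its call without KD replicate 1 (0.116), KD replicate 2 (0.0689) or parent replicate 2 (0.0823) and in DESeq2 (0.144), with 0.0215 to 0.144 across alternatives.

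Of 17 genes of the carnitine shuttle and beta-oxidation, 6 rose and 2 fell, with a median log2 fold change of 0.21. Over all genes 21.5% were called. The counts varied with the libraries: 2 rose and 2 fell without parent replicate 2, and 4 rose and 2 fell without parent replicate 3. Without parent replicate 1, 7 rose and 2 fell. Over all genes these fits called 12.6%, 16.9% and 21.2% in that order. Fewer passed when either KD replicate was left out, which left 1 KD library. When low counts were kept 2 rose and 2 fell, and in DESeq2 4 rose and 2 fell. These settings called 9.58% and 14% of all genes. With library totals or a replicate block 8 rose and 2 fell, where 21.9% and 24.6% of all genes were called. CPT1C, a brain-type relative of the carnitine palmitoyltransferases, had 17.3 and 15.1 CPM in KD, against 8.18, 8.13 and 6.26 CPM in parent (2.16-fold higher, edgeR adjusted p = 0.00269). ACAA2, the last enzyme of the beta-oxidation round, was 1.42-fold lower (adjusted p = 0.00212). Both passed under all 10 alternatives. ACADM, the medium-chain acyl-CoA dehydrogenase, was 1.37-fold lower (edgeR adjusted p = 0.0104), and CPT1B, the muscle-type carnitine palmitoyltransferase, was 1.46-fold higher (0.0130). Both lost their calls without KD replicate 1 (0.0633 and 0.0941), with 0.00970 to 0.0633 and 0.0119 to 0.0941 across alternatives. The other 4 that rose, ACADS, CPT1A, ETFB and SLC22A5, named after their values were seen, had adjusted p of 0.0229 to 0.0480, and each lost its call without KD replicate 1 (0.103, 0.127, 0.239 and 0.116 in that order), KD replicate 2 (0.0912, 0.192, 0.0579 and 0.260) or parent replicate 2 (0.0678, 0.0816, 0.0995 and 0.0965). Without parent replicate 1, ACADS (0.0508), CPT1A (0.0705) and SLC22A5 (0.0617) lost it, and without parent replicate 3, ETFB (0.101) and SLC22A5 (0.119). Over all alternatives their adjusted p ran from 0.0115 to 0.260.

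Of 12 one-carbon and glycine enzymes, 1 rose (ALDH1L2, edgeR adjusted p = 0.0197) and 1 fell (MTHFD1L, 0.0417), both enzymes of mitochondrial folate metabolism. ALDH1L2 lost its call without KD replicate 1 (0.132) or parent replicate 2 (0.0598) and in DESeq2 (0.123), with 0.0181 to 0.132 across alternatives. MTHFD1L lost it without KD replicate 1 (0.208), parent replicate 1 (0.0511), parent replicate 2 (0.0891) or parent replicate 3 (0.0980), when low counts were kept (0.0856) and in DESeq2 (0.0681), with 0.0320 to 0.208 across alternatives. Of 16 genes of mitochondrial biogenesis and dynamics, 0 rose and 2 fell, TFAM and TFB2M, factors of mitochondrial transcription. Both lost their calls without KD replicate 1 (edgeR adjusted p = 0.227 and 0.120), KD replicate 2 (0.0883 and 0.0950), parent replicate 2 (0.141 and 0.0874) or parent replicate 3 (0.105 and 0.0679). TFAM also lost it with library totals (0.0603) and when low counts were kept (0.0888), and TFB2M in DESeq2 (0.106), with alternatives at 0.0110 to 0.227 and 0.0164 to 0.120. These shares stand beside the 21.5% of all genes called.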

How the data were processed

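RNA-seq covered 5 libraries of MDA-MB-231, 2 labelled KD and 3 labelled parent. Groups and replicate numbers come from the sample titles. Another 2 samples, from chromatin immunoprecipitation, were not analysed here. Expected counts per gene, deposited as whole numbers, were the values analysed. Those per transcript were not used here. STAR, DESeq2 and build hg19 are named, with no version, per the submitters' processing notes. Counter, annotation and strand setting: not given in the sources used here. In the authors' own comparison stand, per the file headers, a mean signal for each gene, the log2 change and its error, the Wald score, and raw and adjusted p-values.

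Low counts were removed with filterByExpr (minimum count 10, minimum total 15), which left 16198 of 57773 genes. After TMM scaling, edgeR 4.0.16 (R 4.3.3) fitted a quasi-likelihood model of group alone, which left 3 residual degrees of freedom. P-values were adjusted by Benjamini-Hochberg over all tested genes, with a threshold of 0.05. The standard error is the size of the log2 fold change divided by the root of F, and 95% intervals use the moderated degrees of freedom. Alternatives were the size factors of DESeq2, library totals, no filter, the Wald test of DESeq2 1.42.0, each library left out, and a replicate block. The code was tested on simulated counts. Libraries within a group all differed by more than sampling noise (chi-square per degree of freedom of at least 3.80).

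Members, role groups, pairs and gene lists were chosen with earlier results of these data known. Every member could be named, but 1 called member and 1 other called gene are not reported here and enter only the counts. Members past the threshold and the 5 with the most counts are given in every library. In other lists the called genes with the smallest adjusted p are named, up to 4. The exception is the carnitine list, where all called genes are named. Library totals limit precision, and limits drawn from a count of 0 cover counting error only. Promoter windows were matched by symbol.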

Additional observations from a re-analysis of the deposited data

How the results depend on the processing

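The direction of the 8 called carriers was the same under all 10 alternatives, which could hardly change it because the groups did not overlap. The count of called carriers was 5 in DESeq2, 8 with its size factors, 9 with library totals and 6 of 45 with no filter. Over all genes these settings called 14%, 21.5%, 21.9% and 9.58% in that order. With a parent library left out the count ran from 2 to 11, where 12.6% to 21.2% of all genes were called. With a KD library left out, which leaves a single KD library, fewer carriers passed than with all libraries. The count over all genes ran from 1823 to 3383 with a library left out, and the carriers' median log2 fold change from -0.0486 to 0.00222. With fewer libraries the tests have fewer degrees of freedom. With the replicate block over numbers 1 and 2 (4 libraries), 13 carriers and 3948 genes passed. SLC25A42 did not pass, and SLC25A10, SLC25A11, SLC25A23, SLC25A27, SLC25A37 and SLC25A44 did. The numbers are not known to pair the libraries: deviations of same-numbered libraries correlated at 0.0868 and -0.018. Without the block, 8 and 3485 passed.

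Sign changes occurred in tested carriers whose 95% intervals cross 0. SLC25A17 was at 0.0113 with library totals and 0.0738 with the block. SLC25A14 was at -0.00454 with no filter and -0.00153 in DESeq2. SLC25A16 was at -0.00122 with DESeq2 size factors, -0.00914 with no filter, -0.00613 in DESeq2 and -0.000671 with the block, and SLC25A22 at -0.00131 with the block. With a library left out, log2 fold changes ran from -0.0247 to 0.121 for SLC25A13, from -0.0159 to 0.067 for SLC25A3, from -0.102 to 0.0774 for SLC25A17, from -0.0695 to 0.078 for SLC25A14, from -0.128 to 0.0109 for SLC25A51, from -0.0136 to 0.0178 for SLC25A16, from -0.437 to 0.129 for SLC25A35, from -0.0355 to 0.347 for SLC25A52, from -0.0288 to 0.116 for SLC25A38, from -0.159 to 0.00952 for SLC25A33 and from -0.0105 to 0.0368 for SLC25A22. The cause was not tested. Depth limits SLC25A18 and SLC25A52, which had 13 to 24 counts in a library and 95% intervals of -0.40 to 1.16 and -0.50 to 0.84 on the log2 scale.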
